A study of Macaca mulatta with 17 samples.

Results

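The erythroid membrane, heme and regulator genes are 32 genes of the red blood cell and its precursors, measured here as RNA in the uterus of rhesus macaque fetuses. They were chosen by name and hold no globin chain. Of these, 10 code for proteins of the red cell membrane and its skeleton, 9 for heme synthesis and iron uptake, 7 for transcription factors and other regulators, and 6 for cytoplasmic proteins. All 32 were found on the array through 37 of its 20217 probes, which carry 17197 distinct gene names, and each gene is given by its probe with the highest mean signal over the 17 arrays.

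A red cell precursor carries transcripts for globin, heme synthesis and the membrane. The transcription factors GATA1, TAL1 and KLF1 switch on the genes for these while the nucleus is still present. ALAS2 opens heme synthesis in the mitochondria. Spectrin and ankyrin belong to the skeleton that keeps the circulating cell flexible, and the membrane protein band 3 (SLC4A1) anchors it. In the fetus, red cells are made first in the yolk sac, then in the liver and later in the bone marrow, and nucleated precursors also circulate in fetal blood. The uterus is not known as a site of red cell formation.

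Uteri of 17 female fetuses were measured, each on 1 one-color array. Dams were given a daily fruit treat with 400 µg/kg deuterated bisphenol A (BPA), a plastics monomer with estrogenic activity, or with the ethanol vehicle alone. The groups were GD100 control (5 fetuses), GD100 BPA (5), GD165 control (4) and GD165 BPA (3), where GD is the gestational day of collection. Dosing ran from GD50 to GD100 with caesarean delivery in the GD100 groups, and from GD100 to vaginal delivery near GD165 in the others, so that age, delivery and the window of dosing cannot be told apart in a comparison of ages. Uteri of stillborn fetuses were not measured. RNA came from 1 side of each uterus, cut lengthwise, with the blood it held, and fewer cells of a type and less RNA per cell cannot be told apart.

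A level below is a log2 signal after each array was scaled to its 75th percentile. A difference is a difference of mean log2 levels with its standard error (SE) from limma, and it passed the test when its p, adjusted over all 20217 probes by the method of Benjamini and Hochberg, was under 0.01. On each array, 83.8 to 89.0% of the spots exceeded background clearly, and no 2 arrays held the same values. Of 12 listed stroma markers of the uterus, HOXA10, ESR1 and PDGFRA were well above background on all 17 arrays, but PGR on only 3. Other tissue markers differed with age as well. The mean level of 20 skeletal muscle genes, as the deviation from each gene's average, ran from −1.25 to −0.76 in GD100 controls and from 0.23 to 3.24 in GD165 controls. It was 3.24 in GD165 control replicate 5 and 2.80 in GD165 BPA replicate 5, against 1.32 or less on every other array. With BPA it ran from −1.14 to 0.33 at GD100 and from −0.27 to 2.80 at GD165, which overlap. For 21 leukocyte genes the same mean ran from −0.74 to 0.12 and from 0.10 to 0.68 in controls, and from −0.50 to 0.28 and from −0.22 to 0.44 with BPA, overlapping in both. For 8 mast cell genes it did not overlap, with −0.62 to −0.39 and 0.14 to 0.97 in controls and −0.74 to −0.17 and 0.72 to 0.85 with BPA. Of 10 epithelial genes, 6 passed as higher in GD165 controls and 4 with BPA, against 6.32 and 4.82% of all probes.

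Of the 32 genes, 27 were well above background on all arrays, 4 on some (TRIM10 on 11, RHAG on 14, GYPB on 5 and CA1 on 1 of 17) and XK on none. The annotation ties the probes of 29 genes to human transcripts, that of RHAG to a baboon transcript, and those of TFRC and BLVRB to macaque clones. The effect of such sequence differences on the signal was not tested. The first 30 of the 60 bases are printed for the probes of the 6 red cell genes that passed in a comparison of ages, as the scanner files hold them, 5′ to 3′, with no part set in capitals. TRIM10 has a pair of unlike probes, and both are printed because they differed in brightness.
KLF1: gcttcccagagaccctgggtctagaaaggg
NFE2: tcttccctgactcagcttctcaggtcttca
HEMGN: gataagtgactaagactgaacacttacatt
KEL: agatttcctttccacttctgttccaaaaat
RHAG: agagaacctgaccatcacttccatggacat
TRIM10, brighter probe: acaggactcaaatcaacccaagaaccacgt
TRIM10, dimmer probe: tttaacatcatctctgtttactctgctcag
The G and C content of the 60 bases was 35% for HEMGN and between 40 and 55% for the others. The 2 probes of BPGM turned out to be the same 60 bases at separate spots. Their levels never differed by more than 0.08 on an array, which shows the spot-to-spot noise of that probe within an array.

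Between GD100 and GD165 the genes that passed were lower at GD165, and 4 of the 7 regulators were among them. KLF1, NFE2, HEMGN, TRIM10, the Rh-associated membrane protein RHAG, the KEL blood group protein and the mitochondrial iron importer SLC25A37 were lower in BPA-exposed fetuses, and TRIM10 and the skeleton protein EPB41 were lower in controls. The master factors GATA1 and TAL1, the erythropoietin receptor EPOR and the spectrin SPTB did not pass in either. In controls, 2 of the 32 genes passed, both lower (6.25%, against 11.5% of all probes in either direction and 5.2% lower). In BPA-exposed fetuses, 7 passed, all lower (21.9%, against 9.68% of all probes in either direction and 4.86% lower). The share in controls was below that of the whole array in either direction and close to it among lower genes. An unadjusted p under 0.05 was found for 12 genes in controls (33.1% of all probes) and 19 in BPA-exposed fetuses (34.5%). The difference was negative for 20 of 32 genes in controls and 26 in BPA-exposed fetuses, against 49.5 and 55.3% of all probes. These comparisons have no array in common, and of the 7 genes that passed in BPA-exposed fetuses all 7 had a negative difference in controls. Among all probes that passed in BPA-exposed fetuses, 98.0% had the same sign in controls. The median difference over the 32 genes was −0.14 in controls and −0.45 in BPA-exposed fetuses, against 0.00 and −0.05 over all probes.

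**Figure D1:**
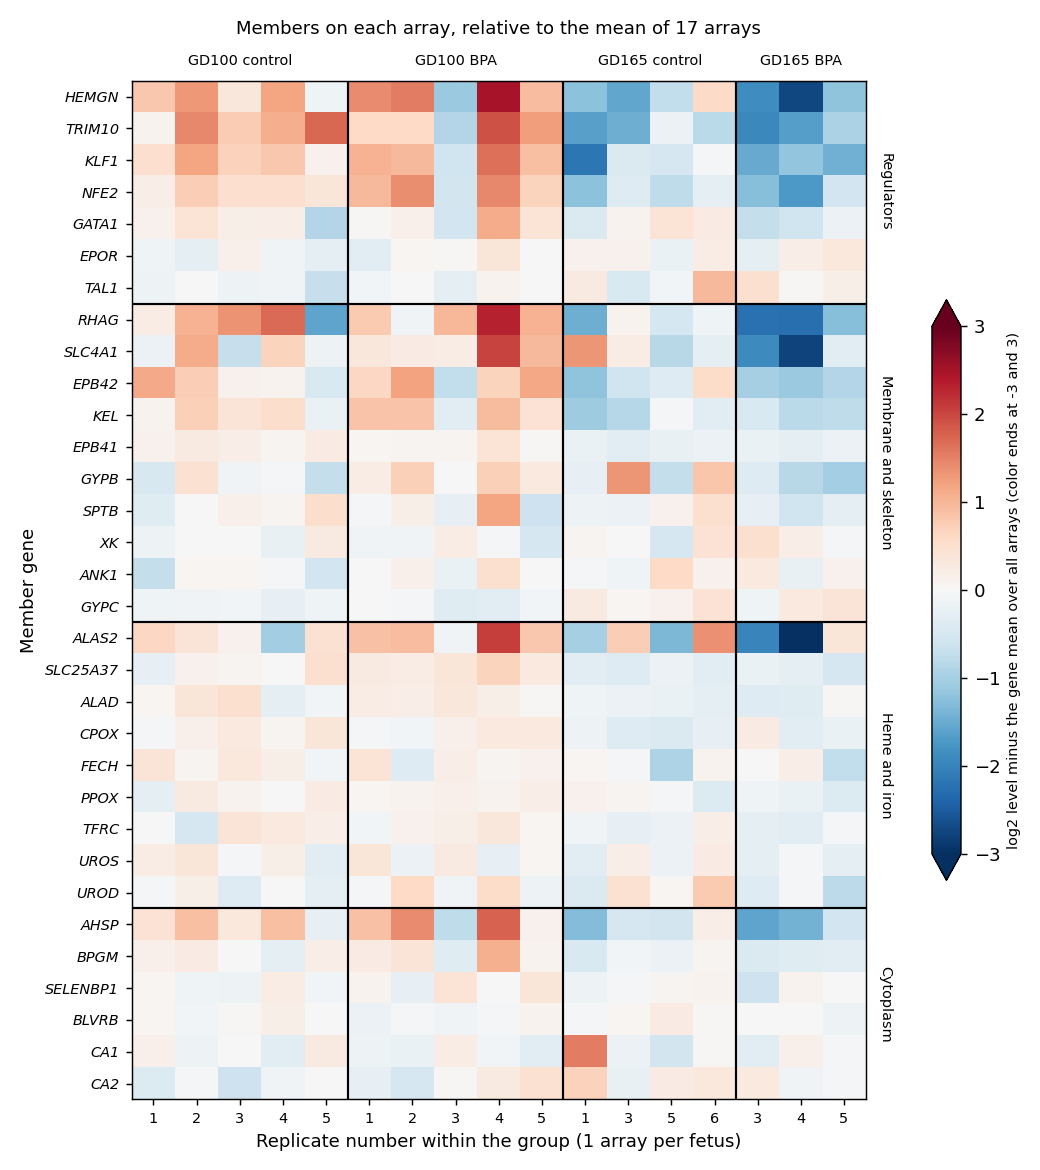
Level of each of the 32 genes (rows, by role) on each of the 17 arrays (columns, by group and replicate number), as log2 level minus the gene's mean over all arrays, on a color scale that ends at −3 and 3. Blue at GD165 is concentrated in the upper rows of the regulators and of the membrane genes and in ALAS2 and AHSP, and GD100 BPA replicate 4 is red for most of the same genes.

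The gap between genes used mainly in red cells and genes used in many tissues was wide in BPA-exposed fetuses. For the 18 red cell genes the median difference was −1.40 there and −0.11 in controls. For the other 14, which include most enzymes of heme synthesis, it was −0.32 and −0.14. Of the red cell genes 6 passed in BPA-exposed fetuses and 1 in controls, and of the other genes 1 passed in each, all lower. Of all probes 4.86% passed as lower in BPA-exposed fetuses and 5.2% in controls, and the counts in controls were near that share.

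Among the 7 regulators, KLF1 is the zinc finger factor that activates adult beta globin and many red cell genes. Its levels were 7.75, 8.44, 7.95, 8.05 and 7.37 in GD100 controls and 5.07, 6.81, 6.74 and 7.21 in GD165 controls, so that the groups did not overlap. In BPA-exposed fetuses they were 8.30, 8.23, 6.66, 8.89 and 8.15 at GD100 and 5.75, 6.07 and 5.80 at GD165. GD100 BPA replicate 3 was the low one, yet all 3 arrays of GD165 lay below it. The difference was −2.17 (SE 0.47, adjusted p = 0.0049, 4.51-fold) in BPA-exposed fetuses, which passed. In controls it was −1.45 (SE 0.43, adjusted p = 0.025), which did not.

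NFE2 is a leucine zipper factor of globin and platelet genes. Its levels were 10.16, 10.71, 10.47, 10.47 and 10.34 in GD100 controls and 8.73, 9.58, 9.21 and 9.68 in GD165 controls. With BPA they were 10.95, 11.37, 9.42, 11.41 and 10.65 at GD100 and 8.69, 8.24 and 9.39 at GD165. The ages did not overlap in either treatment, although GD100 BPA replicate 3 and GD165 BPA replicate 5 were close. The difference was −1.98 (SE 0.38, adjusted p = 0.0024, 3.95-fold) in BPA-exposed fetuses and −1.13 (SE 0.35, adjusted p = 0.032) in controls.

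HEMGN (hemogen) is a nuclear protein of blood precursors and a target of GATA1. Its levels were 9.08, 9.57, 8.60, 9.44 and 8.14 in GD100 controls and 7.04, 6.71, 7.53 and 8.84 in GD165 controls, where replicate 6 reached into the younger group. With BPA they were 9.68, 9.80, 7.17, 10.75 and 9.20 at GD100 and 6.42, 5.55 and 7.05 at GD165, a difference of −2.98 (SE 0.66, adjusted p = 0.0056, 7.89-fold). In controls the difference was −1.44 (SE 0.61, adjusted p = 0.11).

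TRIM10 is a RING finger protein needed for terminal red cell maturation. It was the one gene that passed in both treatments. Its levels were 4.41, 5.75, 5.08, 5.41 and 6.04 in GD100 controls and 2.68, 2.85, 4.14 and 3.51 in GD165 controls, and 2 of these last 4 arrays were not well above background. The difference in controls was −2.04 (SE 0.48, adjusted p = 0.0071). With BPA, levels were 4.90, 4.90, 3.44, 6.22 and 5.56 at GD100, where replicate 3 was not well above background, and 2.38, 2.67 and 3.36 at GD165, where no array was well above background. The measured difference of TRIM10 with BPA was −2.20 (SE 0.53, adjusted p = 0.0087). It was 4.34-fold when no GD165 array was counted below the lowest signal well above background of any probe on it. That floor is not specific to the TRIM10 probe, so this is no minimum, and the size is limited by the background. The dimmer TRIM10 probe was above background on 1 of 5 GD100 control and 2 of 5 GD100 BPA arrays and on none at GD165, with differences of −0.92 (adjusted p = 0.18) and −1.51 (adjusted p = 0.045). When both probes were averaged, TRIM10 did not pass in either comparison.

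The other 3 regulators did not pass. GATA1 differed by 0.07 (95% confidence interval −0.59 to 0.73) in controls and by −0.73 (−1.45 to −0.01, adjusted p = 0.14) in BPA-exposed fetuses. TAL1 differed by 0.40 (−0.08 to 0.87) and 0.28 (−0.24 to 0.80), and EPOR, the receptor for erythropoietin, by 0.21 (−0.11 to 0.52) and 0.06 (−0.28 to 0.41). For TAL1 and EPOR these intervals leave out a decrease of the size measured for KLF1 or TRIM10. All 3 were well above background on every array.

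**Figure D2:**
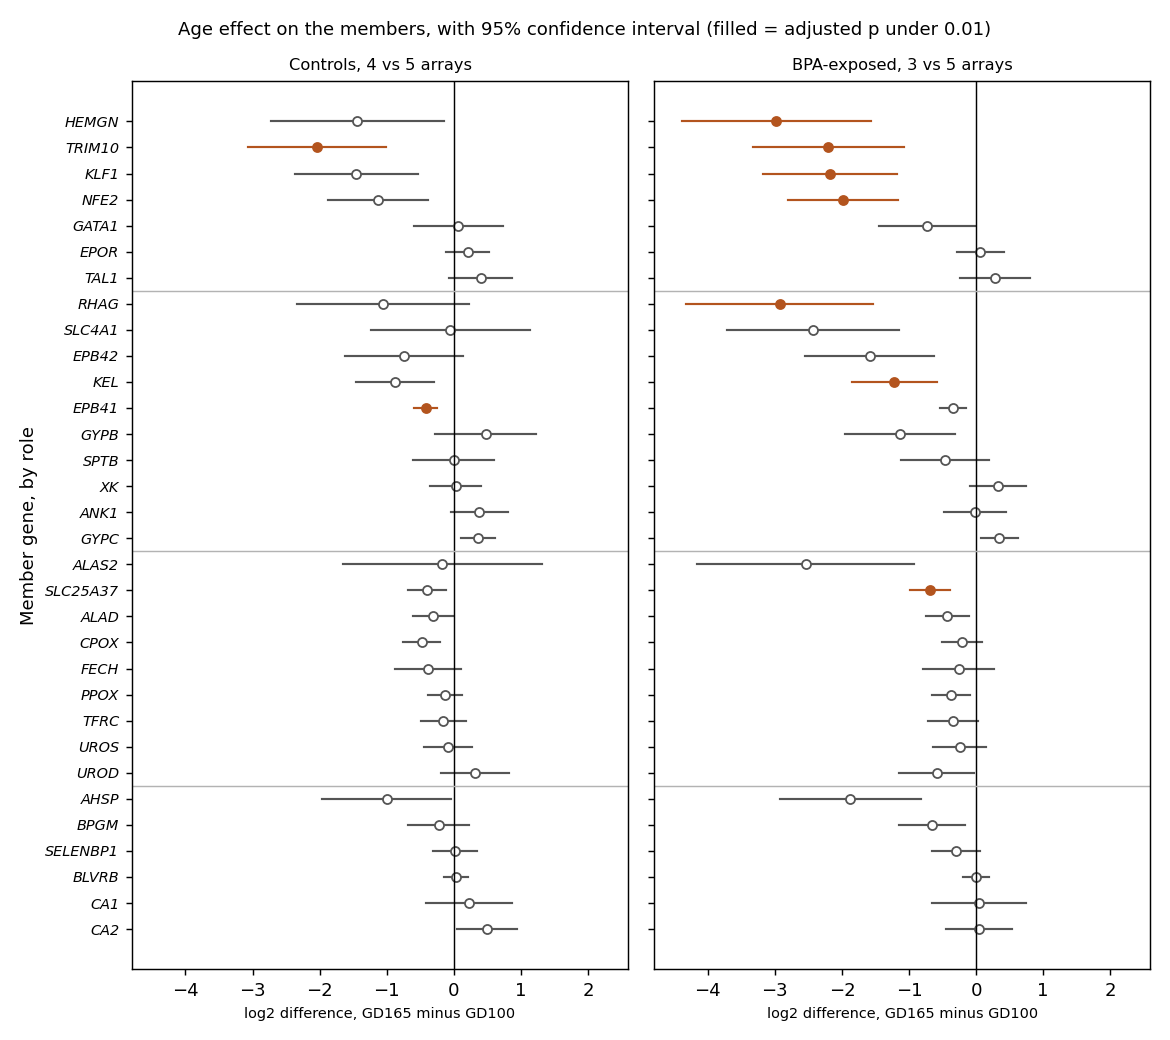
Difference between GD165 and GD100 (x axis, log2) for each of the 32 genes (y axis, by role), in controls on the left and in BPA-exposed fetuses on the right. Points are differences with 95% confidence intervals from limma, filled where the adjusted p was under 0.01, which are 2 genes on the left and 7 on the right.

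Among the 10 membrane genes, 1 passed in controls and 2 in BPA-exposed fetuses, all lower, against 5.2 and 4.86% of all probes. EPB41, protein 4.1, links spectrin to the membrane in red cells and has other forms in most tissues. Its levels were 14.95, 15.08, 15.03, 14.90 and 15.08 in GD100 controls and 14.62, 14.47, 14.60 and 14.65 in GD165 controls. The spread within a group was small beside the gap, and the difference of −0.42 (SE 0.08, adjusted p = 0.0020, 1.34-fold) held when any 1 of the 9 arrays was left out. With BPA, levels were 14.87, 14.91, 14.90, 15.22 and 14.87 at GD100 and 14.63, 14.54 and 14.65 at GD165. These did not overlap either, and the difference was −0.34 (SE 0.09, adjusted p = 0.014).

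RHAG carries the Rh blood group complex. Its levels were 5.42, 6.24, 6.54, 6.90 and 3.62 in GD100 controls and 3.72, 5.29, 4.68 and 5.08 in GD165 controls. The ages overlapped in controls through GD100 control replicate 5, which was not above background, and the difference was −1.05 (SE 0.60, adjusted p = 0.24). With BPA, levels were 5.98, 5.08, 6.20, 7.52 and 6.25 at GD100 and 2.97, 2.94 and 3.92 at GD165, with 1 of these last 3 arrays above background. The measured difference was −2.93 (SE 0.65, adjusted p = 0.0058), and its size is limited by the background on the other 2 arrays.

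KEL, the Kell blood group peptidase, had levels of 8.06, 8.67, 8.35, 8.49 and 7.77 in GD100 controls and 6.90, 7.11, 7.94 and 7.63 in GD165 controls, a difference of −0.87 (SE 0.27, adjusted p = 0.033). With BPA it had 8.81, 8.82, 7.62, 8.92 and 8.41 at GD100 and 7.51, 7.16 and 7.21 at GD165. The groups with BPA did not overlap, and the difference of −1.22 (SE 0.30, adjusted p = 0.0097, 2.33-fold) lay just inside the threshold. XK, the protein that KEL is bound to on the red cell, was at background throughout, between 1.08 and 2.07.

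SLC4A1 is band 3, the chloride and bicarbonate exchanger that anchors the skeleton. Its levels were 7.21, 8.50, 6.70, 8.06 and 7.24 in GD100 controls and 8.71, 7.61, 6.55 and 7.10 in GD165 controls, with nearly the same mean (difference −0.05, 95% confidence interval −1.23 to 1.13). With BPA they were 7.72, 7.63, 7.61, 9.42 and 8.36 at GD100 and 5.47, 4.60 and 7.08 at GD165. The difference of −2.43 (SE 0.60, adjusted p = 0.011) missed the threshold narrowly, and all 3 arrays of GD165 lay below those of GD100. GD165 BPA replicate 5 stood well above the other 2 of its group.

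EPB42, protein 4.2, joins band 3 to ankyrin. Its levels were 9.39, 8.99, 8.38, 8.36 and 7.80 in GD100 controls and 7.05, 7.66, 7.86 and 8.81 in GD165 controls. With BPA they were 8.88, 9.47, 7.52, 8.92 and 9.41 at GD100 and 7.25, 7.13 and 7.37 at GD165. The groups overlapped in controls (difference −0.74, SE 0.41, adjusted p = 0.23) and not with BPA (−1.59, SE 0.45, adjusted p = 0.022). GYPB, a glycophorin, had 2.75, 3.67, 3.11, 3.19 and 2.49 in GD100 controls and 2.97, 4.53, 2.51 and 4.06 in GD165 controls, with 1 and 2 arrays above background (measured difference 0.48, SE 0.35, adjusted p = 0.39). With BPA it had 3.44, 3.93, 3.21, 3.94 and 3.51 at GD100, 2 of them above background, and 2.83, 2.38 and 2.19 at GD165, none above it. The measured difference of GYPB with BPA was −1.14 (SE 0.38, adjusted p = 0.047), which did not pass. Its size is limited by the background in both of these groups.

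GYPC, glycophorin C, which many tissues make, went the other way. Its levels were 15.48, 15.49, 15.53, 15.34 and 15.48 in GD100 controls and 15.88, 15.67, 15.72 and 16.04 in GD165 controls. These groups did not overlap, and the difference of 0.36 (SE 0.12, adjusted p = 0.039) did not pass. With BPA, levels were 15.62, 15.56, 15.25, 15.27 and 15.52 at GD100 and 15.48, 15.89 and 16.00 at GD165. These overlapped, and the difference was 0.35 (SE 0.13, adjusted p = 0.067). SPTB and ANK1, the spectrin and ankyrin of the red cell skeleton, differed by −0.00 (95% confidence interval −0.61 to 0.60) and 0.38 (−0.04 to 0.80) in controls, and by −0.47 (−1.13 to 0.19) and −0.02 (−0.48 to 0.44) with BPA. The other probe of ANK1 gave −0.12 in controls, a sign opposite to that of the main one.

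**Figure D3:**
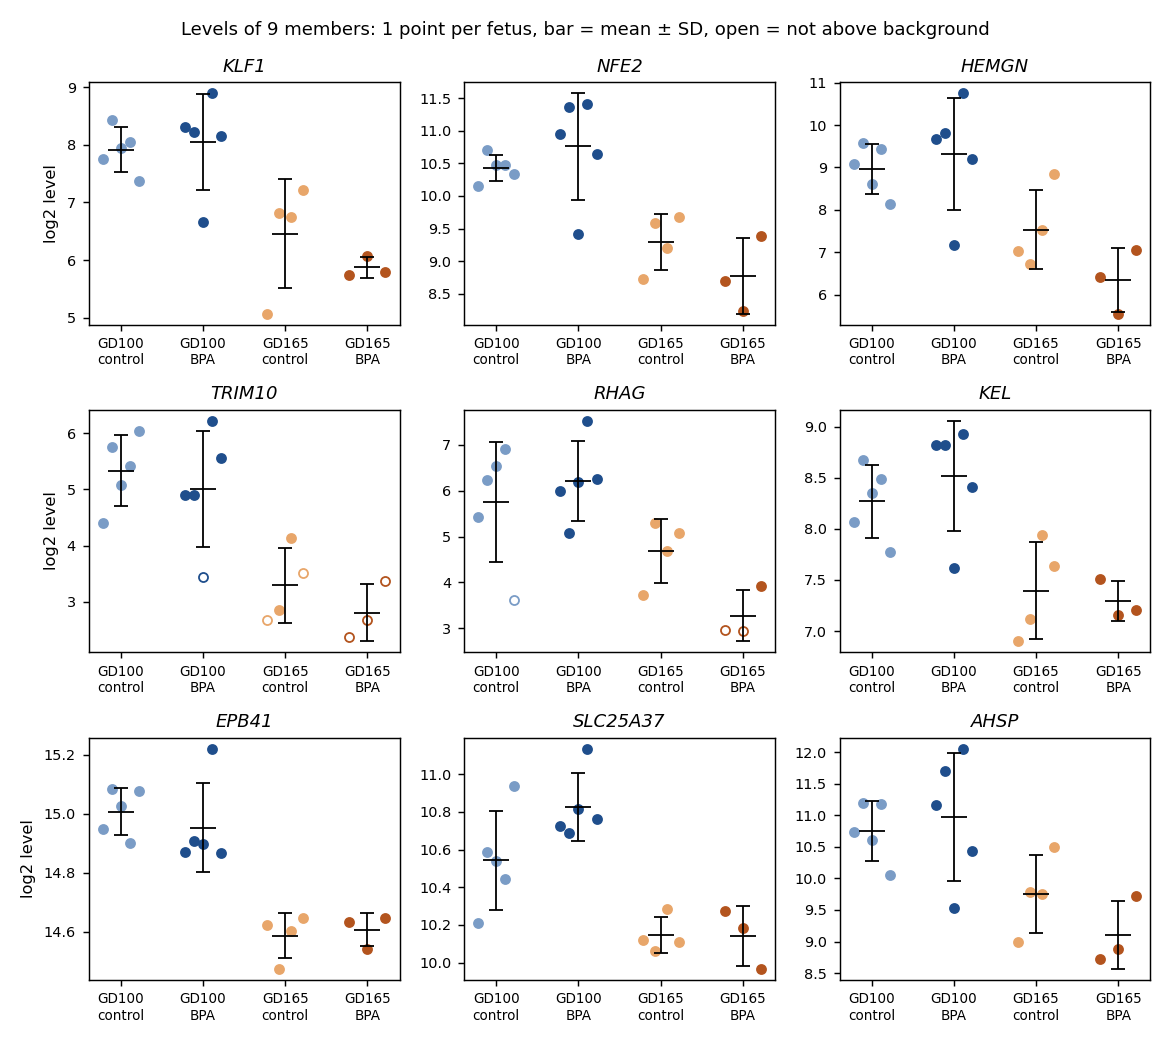
Levels (y axis, log2) of 9 genes in the 4 groups (x axis), with 1 point per fetus, a bar for the mean ± SD and open points for arrays on which the probe was not well above background. The y axes differ and do not start at 0. For EPB41 every GD165 point lies below every GD100 point, and GD100 BPA replicate 3 is the low point of KLF1, NFE2, HEMGN, KEL and AHSP in its group.

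Among the 9 genes of heme and iron, none (0) passed in controls and 1 passed, lower, in BPA-exposed fetuses. Of all probes 5.2 and 4.86% passed as lower. SLC25A37, mitoferrin 1, brings iron into mitochondria for heme. Its levels were 10.21, 10.59, 10.54, 10.44 and 10.94 in GD100 controls and 10.12, 10.06, 10.28 and 10.11 in GD165 controls, a difference of −0.40 (SE 0.13, adjusted p = 0.040). With BPA they were 10.72, 10.69, 10.81, 11.14 and 10.76 at GD100 and 10.27, 10.19 and 9.97 at GD165. The groups with BPA did not overlap, and the difference was −0.68 (SE 0.14, adjusted p = 0.0038, 1.61-fold).

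ALAS2 makes the first intermediate of heme in red cells and spread more than any other of the genes, over 5.32 on the log2 scale. Its levels were 12.22, 11.99, 11.74, 10.56 and 12.06 in GD100 controls and 10.61, 12.34, 10.25 and 12.97 in GD165 controls, where replicates 3 and 6 lay above every array of the younger group and replicate 5 below them. The difference in controls was −0.17 (95% confidence interval −1.65 to 1.31). With BPA, levels were 12.48, 12.52, 11.48, 13.67 and 12.41 at GD100 and 9.61, 8.35 and 11.95 at GD165. GD165 BPA replicates 3 and 4 were the lowest of all 17 arrays, and replicate 5 lay within the GD100 range (difference −2.54, SE 0.76, adjusted p = 0.027).

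The housekeeping enzymes of heme synthesis varied far less. ALAD, the second enzyme, had levels of 10.11, 10.41, 10.53, 9.78 and 9.96 in GD100 controls and 9.93, 9.86, 9.84 and 9.77 in GD165 controls. With BPA it had 10.28, 10.26, 10.38, 10.21 and 10.09 at GD100 and 9.65, 9.70 and 10.08 at GD165. The ages overlapped in controls (difference −0.31, SE 0.14, adjusted p = 0.13) and not with BPA (−0.43, SE 0.15, adjusted p = 0.053). PPOX, which makes protoporphyrin, had 14.46, 14.98, 14.82, 14.74 and 14.97 in GD100 controls and 14.85, 14.79, 14.69 and 14.32 in GD165 controls. With BPA it had 14.79, 14.82, 14.88, 14.82 and 14.92 at GD100 and 14.59, 14.53 and 14.30 at GD165. It too overlapped in controls (−0.13, adjusted p = 0.49) and not with BPA (−0.37, adjusted p = 0.059). CPOX, which precedes PPOX, had 10.72, 10.91, 11.05, 10.83 and 11.12 in GD100 controls and 10.61, 10.37, 10.32 and 10.51 in GD165 controls. With BPA it had 10.71, 10.66, 10.89, 11.03 and 11.05 at GD100 and 11.003, 10.42 and 10.54 at GD165. Here the ages did not overlap in controls (−0.48, SE 0.13, adjusted p = 0.016) and did with BPA (−0.21, SE 0.14, adjusted p = 0.30). UROS, UROD, the iron-inserting enzyme FECH and the transferrin receptor TFRC differed between ages by −0.59 to 0.32, with adjusted p of 0.12 or more in both treatments, and the other probes of TFRC gave −0.14 to −0.39.

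Of the 6 cytoplasmic genes none (0) passed in either comparison of ages, against 11.5% of all probes in controls and 9.68% in BPA-exposed fetuses. AHSP, the chaperone that holds free alpha globin, had levels of 10.74, 11.20, 10.61, 11.19 and 10.05 in GD100 controls and 8.99, 9.78, 9.75 and 10.49 in GD165 controls, a difference of −1.003 (SE 0.45, adjusted p = 0.13). With BPA it had 11.17, 11.70, 9.54, 12.06 and 10.43 at GD100 and 8.72, 8.88 and 9.72 at GD165, a difference of −1.87 (SE 0.49, adjusted p = 0.015). In both treatments the ages overlapped through 1 array. BPGM, which makes the 2,3-bisphosphoglycerate that lowers oxygen affinity, differed by −0.23 and −0.66 (adjusted p = 0.51 and 0.053). The carbonic anhydrase CA2 differed by 0.49 and 0.05, BLVRB by 0.03 and −0.01 and SELENBP1 by 0.02 and −0.30. CA1, the red cell carbonic anhydrase, was above background only in GD165 control replicate 1, at 3.20.

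Groups that did not overlap were counted as well. In controls, 5 of the 32 genes were lower at GD165 without overlap (EPB41, TRIM10, CPOX, KLF1 and NFE2, against 9.9% of all probes) and 1 was higher (GYPC, against 9.51%). For 4 of these 5, all but TRIM10, an exact permutation test of the mean difference gave two-sided p = 0.0079, the smallest that 4 against 5 arrays allow, and for TRIM10 p = 0.016. In BPA-exposed fetuses 13 genes were lower without overlap, against 15.4% of all probes. For NFE2, SLC25A37, KLF1, RHAG, SLC4A1, EPB41, GYPB, ALAD and PPOX the exact p was 0.018, the smallest that 3 against 5 arrays allow. For HEMGN and KEL it was 0.036 and for TRIM10 and EPB42 0.054. The genes of both treatments were picked because their groups did not overlap, which by itself puts the exact p at or near its smallest value. These exact p-values are unadjusted and add nothing to the lack of overlap. In all, 4 genes (EPB41, TRIM10, KLF1 and NFE2) were lower without overlap in both treatments, against 5.90% of all probes.

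The mean of both age effects, a contrast added after the values were seen, passed for 11 of the 32 genes (34.4%, against 22.4% of all probes). They were TRIM10, HEMGN, KLF1, NFE2, RHAG, AHSP, EPB42, KEL, SLC25A37 and EPB41, with differences from −2.21 for HEMGN to −0.38 for EPB41, and GYPC, higher by 0.35. Among all probes 11.1% were lower and 11.3% higher in this contrast. ALAS2 (−1.36, adjusted p = 0.054) and SLC4A1 (−1.24, adjusted p = 0.028) did not pass.

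The count in BPA-exposed fetuses rested on few arrays. It was 0 without GD165 BPA replicate 4 and 1 without replicate 3. It was 2 without GD100 BPA replicate 1, 4 or 5, and 3 without GD100 BPA replicate 2 or GD165 BPA replicate 5. SLC25A37 passed in 6 of these 8 fits, NFE2 in 6, and HEMGN, KLF1, TRIM10, KEL and RHAG in 1. Without GD165 BPA replicate 5 the 3 genes were NFE2, SLC4A1 and ALAS2. Without GD100 BPA replicate 3 the count was 8, with AHSP and EPB42 added and RHAG lost. In controls, EPB41 alone passed without GD100 control replicate 2, 3, 4 or 5 or GD165 control replicate 1, 3 or 6. Within a slide, all 7 differences of BPA-exposed fetuses kept their sign on slide 2, and both differences of controls kept theirs on slides 3 and 5. Each of these slides held 1 array of each age in that treatment. As the ages did not overlap for these genes, any such pair had to keep the sign, so the slides add no evidence here. With slide as a fixed block 0 genes passed in BPA-exposed fetuses and 5 in controls (EPB41, TRIM10, KLF1, NFE2 and KEL).

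Globins, the most abundant red cell transcripts, are given beside these results. Of 9 globin chains, the adult beta chain HBB was higher at GD165 in both treatments (6.46 and 4.67, adjusted p = 4.0e-05 and 0.0012), and the embryonic HBE1 was lower with BPA (−3.72, adjusted p = 0.0049) and differed by −1.55 in controls (adjusted p = 0.16). The fetal chains HBG1 and HBG2, near-identical genes that the probes may not tell apart, differed by −0.78 and −1.04 in controls and by −2.24 and −2.60 with BPA (adjusted p = 0.014 and 0.013). The alpha globin probe HBA2 differed between ages by 0.03 (SE 0.37, adjusted p = 0.96) in controls and by −1.28 (SE 0.40, adjusted p = 0.036) in BPA-exposed fetuses, where replicates 3 and 4 of GD165 stood at 17.23 and 16.99 and replicate 5 at 18.61. With the HBA2 level as a covariate, a fit added after the values were seen, TRIM10 and EPB41 still passed in controls and 0 of the 32 genes passed in BPA-exposed fetuses, while the count over all probes there went from 1956 to 887. The fitted differences with BPA stayed negative in this fit, at −2.30 for RHAG, −2.10 for HEMGN, −1.82 for TRIM10, −1.52 for KLF1, −1.24 for NFE2, −1.15 for KEL, −0.76 for SLC25A37 and −0.25 for ALAS2.

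The rest of the pathway was read from lists written down for this purpose. Of 28 other red cell genes, 6 were higher and 0 lower in GD165 controls, and 5 were higher and 1 lower with BPA. Among all probes 6.32% were higher in controls and 4.82% with BPA. Those that rose in controls were DMTN, TMOD1, AQP1, CD36, FAXDC2 and TSPAN33. Of these, AQP1 and CD36 are also well known from endothelium. TSPO2, a transporter of maturing red cells, differed by −2.61 (SE 0.43, adjusted p = 0.00092) with BPA and by −1.57 in controls (adjusted p = 0.011). GFI1B, a repressor that red cell and platelet precursors need, differed by −1.96 (adjusted p = 0.018) in controls and −2.32 (adjusted p = 0.012) with BPA, and is named here after its values were seen. Of 23 other heme and iron genes, 2 rose in controls, the ferritin chain FTH1 by 0.81 and ceruloplasmin CP by 3.41, CP being above background on 10 of 17 arrays. Of these, CP was also higher with BPA, by 3.44. Of 13 markers of platelets and their precursors, GP1BB and VWF were higher in both treatments and THBS1 was higher with BPA. GP1BA was lower with BPA (difference −0.89, adjusted p = 0.00092). The list as a whole did not rise, with a median of −0.08 in controls (8 of 13 below 0) and 0.07 with BPA (6 of 13 below 0). Which cells of the uterus made these transcripts was not tested.

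Whether the genes vary together from fetus to fetus was asked with ALAS2 as the reference, after group means were subtracted, over the 17 arrays and 31 relations. BPGM followed it most closely in rank, with Pearson's r of 0.60 (permutation p = 0.00037, 0.011 after adjustment over the 31 relations) and Spearman's rho of 0.71 (permutation p = 0.00029, 0.0090 adjusted). Without the 2 arrays farthest from the median of ALAS2, both of GD165 BPA, r was 0.77. NFE2 had r of 0.69 and rho of 0.68 (permutation p = 0.0047 and 0.011, 0.073 and 0.17 adjusted), r = 0.61 without those arrays. AHSP and HEMGN had r of 0.55 and 0.54, with adjusted p of 0.23 and 0.24. For SLC4A1 r was 0.44 and became 0.13 without those 2 arrays, so that it rested on them. BPGM was the only gene with an adjusted p under 0.05, the threshold used for these relations.

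**Figure D4:**
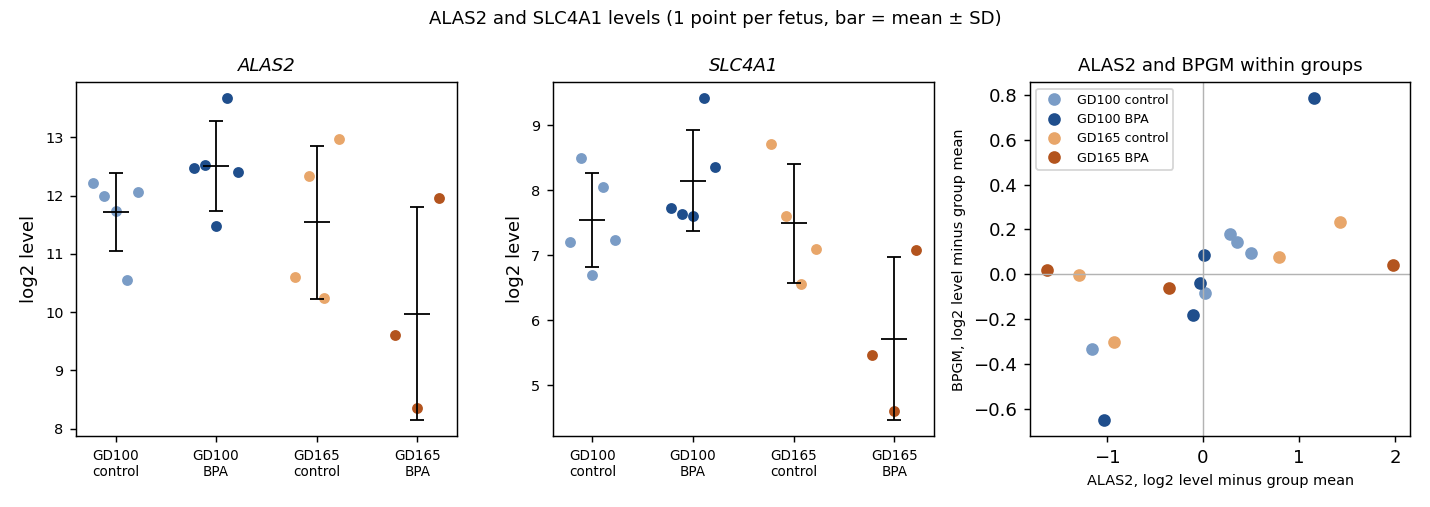
Left and middle, levels (y axis, log2) of ALAS2 and SLC4A1 in the 4 groups with 1 point per fetus and a bar for the mean ± SD. Right, deviation from the group mean of BPGM (y axis) against that of ALAS2 (x axis) on the 17 arrays, with Pearson's r of 0.60.

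Exposure to BPA was compared with vehicle at each age, which asks whether the estrogenic agent moved red cell transcripts in the uterus. At GD100 none (0) of the 32 genes passed, as did none of all probes (0.0%), and 1 had an unadjusted p under 0.05, against 3.79% of all probes. That gene was SLC25A37 (difference 0.28, SE 0.12, adjusted p = 0.99993). At GD100 no gene of the 32 was without overlap, against 0.381% of all probes higher and 0.401% lower. ALAS2 was at 12.51 ± 0.78 (SD, n = 5) with BPA and at 11.71 ± 0.67 (SD, n = 5) in controls, a difference of 0.80 (95% confidence interval −0.60 to 2.20). For KLF1 the difference was 0.14 (−0.730 to 1.0003), for AHSP 0.22 (−0.68 to 1.13) and for SLC4A1 0.61 (−0.51 to 1.72). The sign was positive for 23 of 32 genes, against 53.3% of all probes, and the median was 0.16 against 0.01. Within slides, medians were −0.03 on slide 1, −0.06 on slide 2 and 0.09 on slide 3, and GD100 BPA replicates 4 and 2, on slide 6, had no GD100 control beside them. The signs of KLF1 and AHSP turned without GD100 BPA replicate 4 (−0.08 and −0.05) and with slide as a fixed block (−0.47 and −0.49).

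At GD165 none (0) passed again (0.0% of all probes), and 3 had an unadjusted p under 0.05, against 8.61% of all probes. These were SLC4A1 (difference −1.78, SE 0.63, unadjusted p = 0.013 and adjusted p = 0.49 in limma), GYPB (measured −1.05, adjusted p = 0.51, with 0 of 3 exposed and 2 of 4 control arrays above background) and UROD (−0.63, adjusted p = 0.55). The sign was negative for 26 of 32 genes, against 55.3% of all probes, and the median was −0.20 against −0.02. For the 18 red cell genes it was −0.56. ALAS2 was at 9.97 ± 1.83 (SD, n = 3) with BPA and 11.54 ± 1.32 (SD, n = 4) in controls, a difference of −1.57 (95% confidence interval −3.26 to 0.12). The differences were −0.59 (−1.63 to 0.46) for KLF1 and −0.65 (−1.74 to 0.45) for AHSP. Intervals of this width hold both no effect and a decrease of several-fold. SPTB was the only gene without overlap. At GD100 it had been at 4.70, 4.93, 4.52, 5.95 and 4.14 with BPA and 4.41, 4.76, 4.90, 4.83 and 5.28 in controls. At GD165 it was at 4.50, 4.16 and 4.47 with BPA and 4.62, 4.59, 4.89 and 5.24 in controls, a difference of −0.46 (adjusted p = 0.74, exact permutation p = 0.086, where 3 against 4 arrays allow no less than 0.029), against 5.24% of all probes. Within slide 5, which held 2 exposed fetuses and 1 control, 20 of 32 genes had the sign of the full comparison. HBA2 differed by −0.85 with BPA at GD165 (adjusted p = 0.60), and its part in these differences was not tested.

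**Figure D5:**
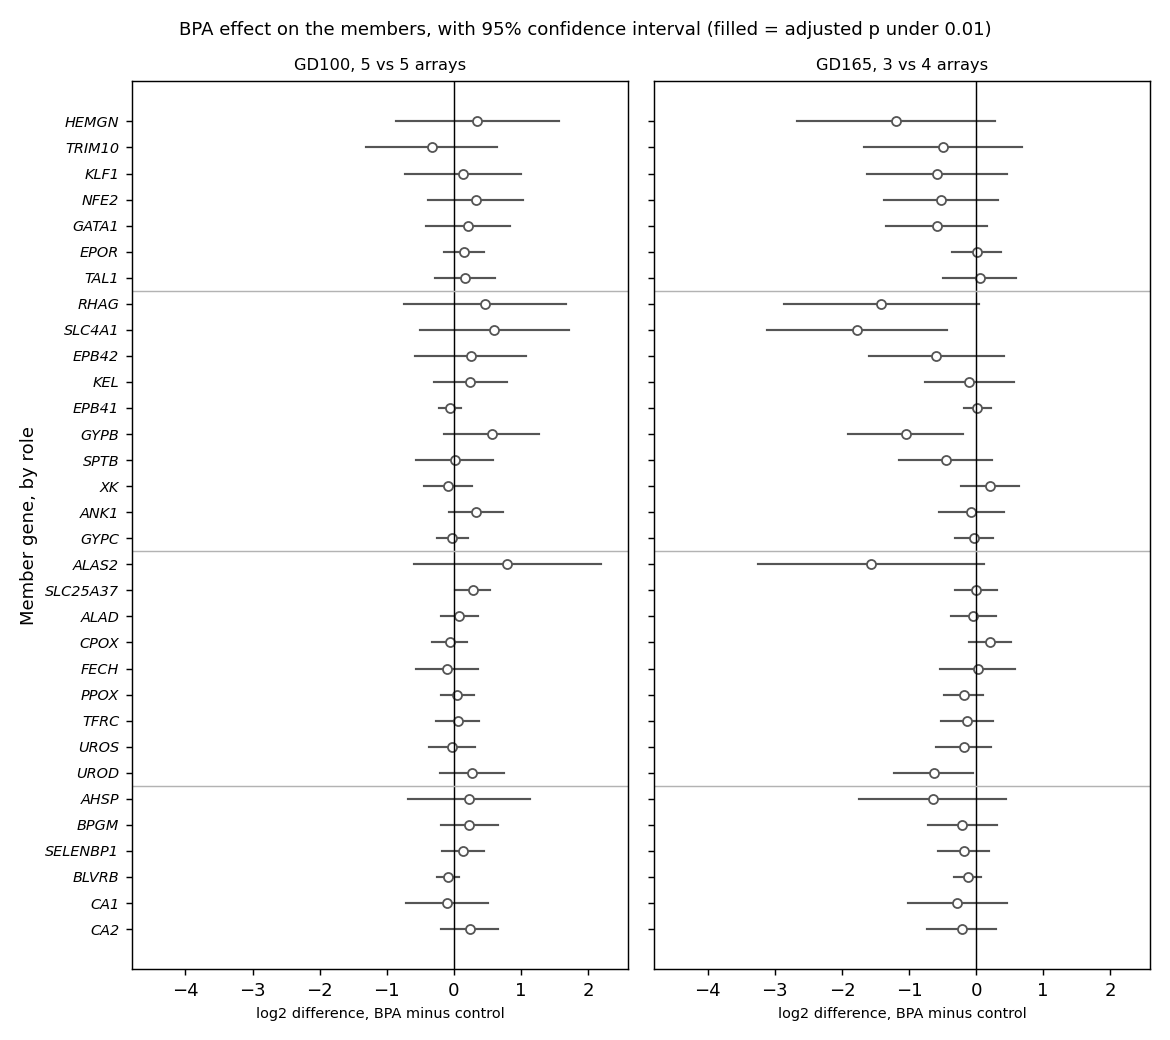
Difference between BPA and control (x axis, log2) for each of the 32 genes (y axis, by role), at GD100 on the left and at GD165 on the right, with 95% confidence intervals from limma. No point is filled, as 0 genes had an adjusted p under 0.01, and SLC4A1, ALAS2 and RHAG lie farthest to the left at GD165.

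The difference between the BPA effects at the 2 ages, tested as an interaction, passed for 0 of the 32 genes (0.0% of all probes). An unadjusted p under 0.05 was found for 4, against 7.83% of all probes, and the contrast was negative for 28 of 32, against 55.7%. They were SLC4A1 (−2.38, SE 0.82, adjusted p = 0.53), ALAS2 (−2.37, SE 1.03, adjusted p = 0.61), GYPB (measured −1.61, near background, adjusted p = 0.52) and UROD (−0.91, adjusted p = 0.57). The same contrast is the difference between the age effects with and without BPA, so the larger decreases with age in BPA-exposed fetuses were not shown to differ from those in controls. The interaction was −1.54 (95% confidence interval −3.46 to 0.37) for HEMGN, −0.72 (−2.08 to 0.63) for KLF1 and −0.16 (−1.68 to 1.36) for TRIM10.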

How the data were processed

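The authors hybridised RNA of single uteri to Agilent rhesus arrays and extracted them with Agilent Feature Extraction 9.5 (version per the labels) at its one-color settings. The deposited processed signals are linear intensities, background-subtracted and not scaled between arrays. The authors' value table equalled the scanner files in 711467 of 711467 values at a tolerance of 0. Here, the log2 signals of a probe's 2 spots were averaged without control and outlier spots, and each array's 75th percentile was subtracted, with the mean of these, 12.62, added back. The linear model of limma 3.58.1 in R 4.3.3, with moderated variances, took all 17 arrays and 4 groups, in place of the study's error-weighted ANOVA, keeping its threshold of 0.01. The script was tested on simulated data. Exact permutation and correlation tests (100000 draws within groups) used Python 3.11.15, and all tests were two-sided. The 32 genes and the lists were chosen with earlier results of these data known. Every one of the 32 genes is named. Those that passed or did not overlap, and ALAS2, SLC4A1, KLF1 and AHSP, are given in full. No filter on dim probes was applied. The number of arrays limits the precision. Samples were grouped by their labels. Of the planned work, the count of promoter motifs was not run. The alternatives are named in the closing section. Some items of the lists are not reported here.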

Additional observations from a re-analysis of the deposited data

Results flagged for a closer look

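In 96 groups of 4 or 5 arrays, 6 values of the 32 genes stood apart from the rest of their group by Dixon's test at its 95% level, which chance gives in about 1 in 20 groups. GD100 BPA replicate 4 was the high one for EPB41, at 15.22 where the other 4 arrays ran from 14.87 to 14.91, and for SLC25A37, at 11.14 against 10.69 to 10.81. GD100 control replicate 5 was the low one for GATA1, at 6.91 against 7.92 to 8.20, and for TAL1, at 5.46 against 6.00 to 6.15. The other 2 values were GYPC in GD100 control replicate 4, at 15.34 against 15.48 to 15.53, and FECH in GD165 control replicate 5, at 13.45 against 14.35 to 14.48. All 6 were well above background.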

How the results depend on the processing

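No BPA comparison gained a gene past the threshold under the other background corrections, scalings, filters, weights, blocks and sets of arrays tried. The mean of both age effects and HBA2 as a covariate, which concern age alone, were added after the data were seen. In controls the count of genes past the threshold between ages, 2 as reported, was 1 with normexp background correction, 0 without scaling, 1 with the error weights of the scanning software, 5 with slide as a fixed block, 1 with the mean over a gene's probes, 11 for the mean of both age effects (median −0.33) and 8 at a threshold of 0.05. In BPA-exposed fetuses the count, 7 as reported, was 2 without scaling, 1 with only the compared groups fitted, 0 with slide as a fixed block, 0 with HBA2 as a covariate, 11 for the mean of both age effects and 13 at a threshold of 0.05. Leaving out 1 array at a time gave 1 to 2 genes in controls and 0 to 8 in BPA-exposed fetuses.

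Replicate numbers did not pair the arrays, since same-numbered arrays of different groups had correlations of −0.17 to 0.16, with 3 of 19 above 0.1, and 1 of 16 arrays correlated best with its own number. With the number as a replicate block, 0 genes passed in controls and 1 (TRIM10) in BPA-exposed fetuses, and SLC4A1 differed by 0.22 between ages in controls.

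Medians over the 32 genes moved to −0.27 (age with BPA), −0.037 (BPA at GD165) and −0.14 (interaction) without scaling, and to −0.031 (BPA at GD100) and −0.0014 (interaction) with slide as a fixed block. Without scaling, the median of all probes itself went from −0.05 to 0.13 for age with BPA, to 0.14 for BPA at GD165 and to 0.16 for the interaction. The split of all probes past the threshold for age with BPA went from 974 higher and 982 lower to 1246 and 389, and with median scaling that in controls went from 1277 and 1051 to 1085 and 1261.

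Some differences that passed in no setting changed sign. With slide as a fixed block, SLC4A1 became 0.51 for age in controls, AHSP and KLF1 became −0.49 and −0.47 for BPA at GD100, 0.046 and 0.12 for BPA at GD165, and 0.54 and 0.60 for the interaction. With slide as a random block SLC4A1 became 0.0094 for age in controls. Leaving out 1 array gave −0.65 to 0.26 for ALAS2 and −0.46 to 0.26 for SLC4A1 (age in controls), and −0.047 to 0.58 for AHSP and −0.076 to 0.48 for KLF1 (BPA at GD100). The cause of these moves was not tested. The precision was limited by 3 to 5 arrays a group and, for TRIM10, RHAG, GYPB, CA1 and XK, by signals at or near background.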
